A study of Mus musculus with 3 samples.

Results

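Vasoactive and hormone receptors let vessels and their supporting cells sense angiotensin, endothelin, catecholamines, nucleotides, lipids and peptides. The genes described here are 59 named receptor genes of that kind, out of 39304 rows in the table. They were chosen by name and not by a cutoff on a measured value, though earlier results of these data were known. All 59 had a row. Of them 56 encode G protein-coupled receptors and 3 encode RAMPs, small membrane proteins that pair with the receptor encoded by Calcrl and set which peptide it binds. RNA was taken from the glomeruli (tufts of capillaries that filter blood in the kidney) of 1 male C57BL/6 mouse, wild type and aged 8 weeks. Glomerular cells were separated, lysed and copied to cDNA one by one on a Fluidigm C1 microfluidic instrument, and each was given an identity by qPCR of markers. The cDNA of 15 mesangial cells, the contractile cells that hold the capillaries together, and 15 endothelial cells, which line the capillaries, was pooled and split into 3 aliquots for sequencing. There is therefore 1 group and no untreated, mutant or second cell type to compare it with, and every SD below is over the 3 aliquots and measures library construction and sequencing, not mice.

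A G protein-coupled receptor passes its signal to a G protein whose alpha subunit sets the response. Gq/11 activates phospholipase C beta and raises calcium, which makes mesangial and smooth muscle cells contract, while Gs activates adenylyl cyclase and relaxes them, and Gi/o inhibits adenylyl cyclase. In the glomerulus angiotensin II and endothelin are known to contract mesangial cells, and prostaglandins and adrenomedullin to oppose them.

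All 3 libraries had similar depth, with library totals of 9141422, 10427635 and 10976563 reads in aliquots 1, 2 and 3, as recovered from the steps between low values. Levels are FPKM as the authors deposited them, that is, reads per kilobase of gene and per 1000000 reads of the library. Markers of both labelled cell types were present: 6 of 6 mesangial and 6 of 6 endothelial markers, none of them used in the qPCR, were detected, meaning at least 1 FPKM in every aliquot. Of the podocyte markers 3 of 6 were detected and none was at 0, with a summed level of 125 to 135 FPKM. Podxl (75.9 FPKM) and Nphs1 (37.6 FPKM) led that sum, and Ptpro, Lmx1b and Kirrel had means under 1 FPKM. Markers of smooth muscle and of renin cells summed to 172 to 187 FPKM, with 5 of 6 detected and Cnn1 at 0. Markers of proximal tubule (0 of 3), macrophages (0 of 4) and fibroblasts (0 of 4) were all listed at 0. Which cells made a receptor transcript cannot be told from a pool, nor can fewer cells of a type be told from less RNA per cell. The part that podocyte or smooth muscle RNA had in the receptor levels was not tested.

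Of the 59 genes 20 were detected (33.9%), against 36.4% of the 21303 protein-coding rows and 21.7% of all rows. A further 5 lay above 0 without reaching that limit, as did 8.94% of protein-coding rows. The other 34 were listed at 0 in every aliquot (57.6%), against 54.6% of protein-coding rows and 71.7% of all rows. These 59 genes were thus detected about as often as other protein-coding genes, but of 31 further receptors for the same ligands 0 were detected. Both lists were chosen with earlier results of these data known, so neither share describes receptors in general. Among the 20 detected genes the median level was 16.3 FPKM, against 21.0 FPKM over detected protein-coding rows. The median over all 59 was 0 FPKM, as it was over all protein-coding rows. Just above the limit P2ry1 had 2.39 FPKM and rested on 283 reads, and just below it Hrh1 had 0.407 FPKM and rested on 32 reads. A zero is reported only as listed, since some genes that most cells use, such as Mrps22, Cox20 and Srsf4, were also listed at 0 in each aliquot. Taken as a count, 0 reads in all 3 libraries together would allow up to 0.0982 reads per 1000000. For the 34 genes, with the length of the longest annotated transcript, that is 0.0126 to 0.0734 FPKM, for counting error only.

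**Figure D1:**
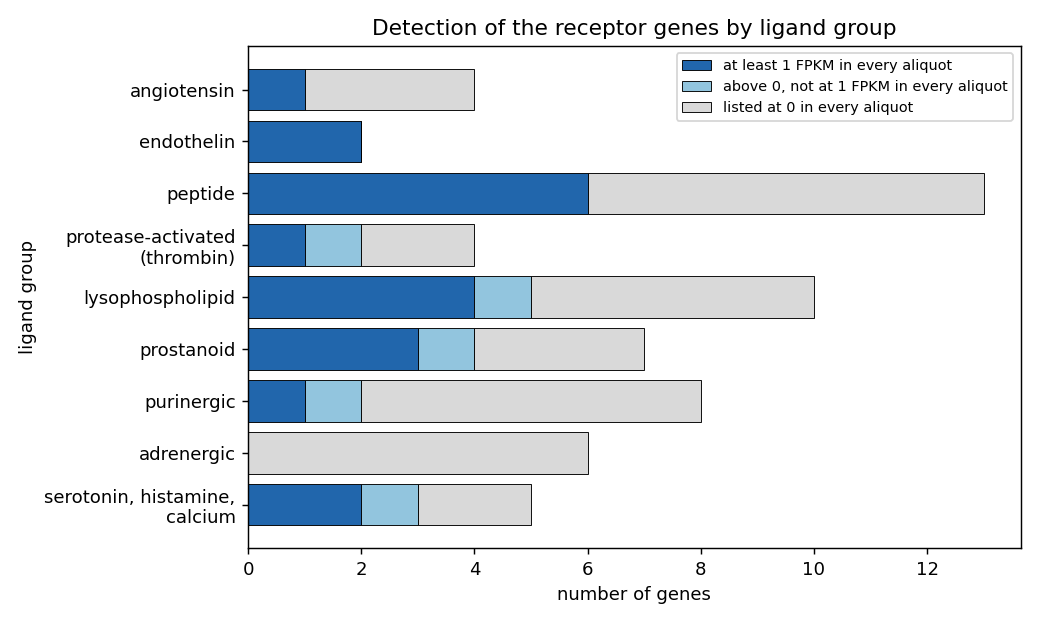
Number of receptor genes in each ligand group (horizontal axis) that were at least 1 FPKM in every aliquot (dark blue), above 0 without reaching that (light blue) or listed at 0 in every aliquot (grey). Both endothelin receptors were detected, 1 of 4 angiotensin receptors and 0 of 6 adrenergic receptors.

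A few genes held most of the signal. The 6 above 100 FPKM, Calcrl, Agtr1a, F2r, Ramp2, Ednrb and S1pr3, made up 89.9% ± 0.271 of the summed level of the 59 genes (SD, n = 3), and they are 10.2% of the list, against 5.32% of protein-coding rows at or above 100 FPKM. The next 7, from Htr1b to Npy1r, lay between 10 and 100 FPKM, and the other 7 detected genes below 10 FPKM. Of the 19 pairs of neighbours in the order of detected genes, 14 had ranges over the aliquots that did not overlap. The exceptions were S1pr1 and Ptger4, Npy1r and Lpar6, Ramp3 and Htr2b, Htr2b and Avpr1a, and Ptgir and Ptger1, whose ranges overlapped. By ligand group the peptide receptors with their RAMPs summed to 828 ± 19.8 FPKM, the angiotensin group to 481 ± 2.50 FPKM and the protease-activated group to 322 ± 11.7 FPKM. Endothelin receptors (153 ± 2.49 FPKM) and lysophospholipid receptors (151 ± 2.29 FPKM) lay within their spread of each other. Prostanoid receptors summed to 23.0 ± 0.332 FPKM.

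**Figure D2:**
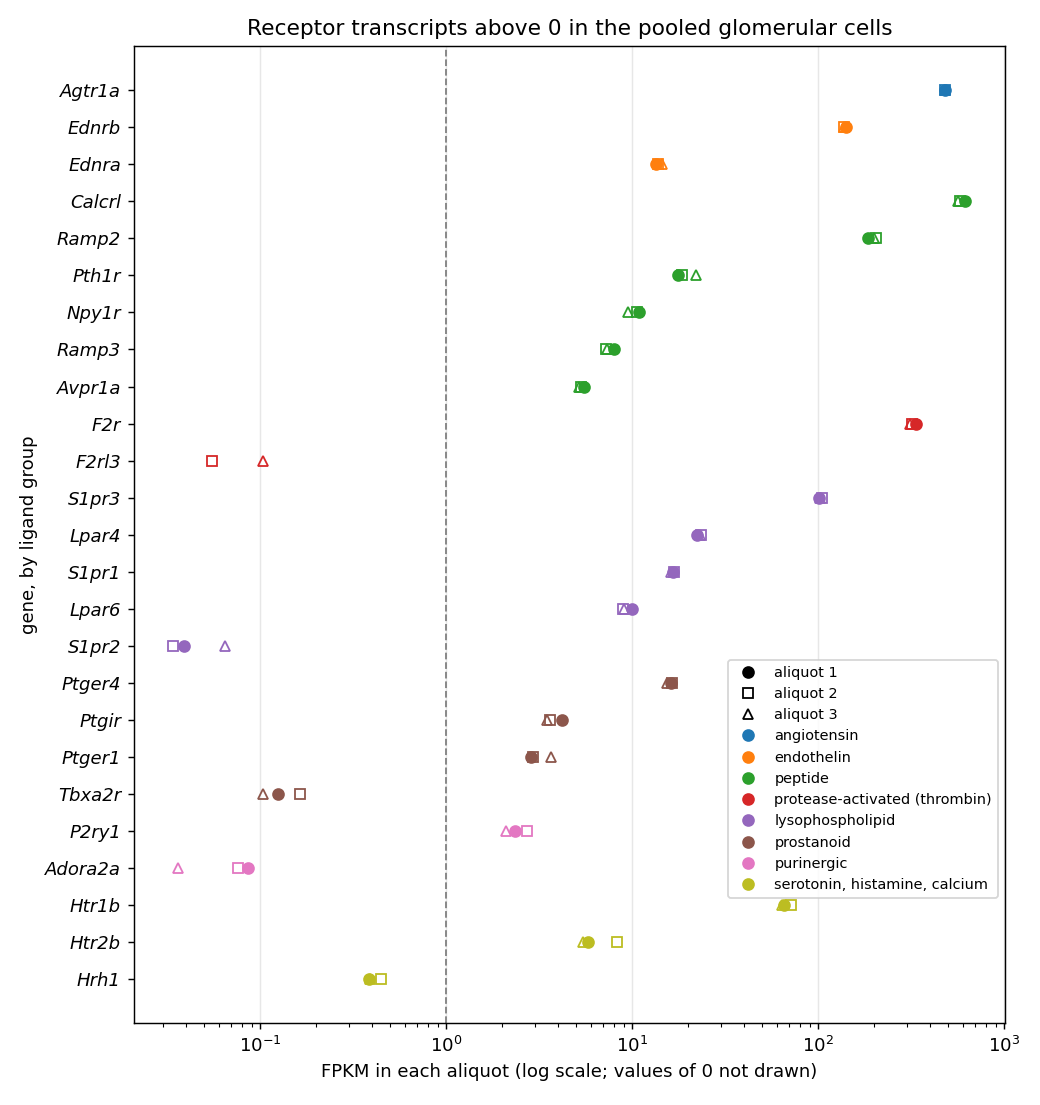
FPKM of each receptor gene above 0 (horizontal axis, log scale) in aliquot 1 (filled circle), aliquot 2 (open square) and aliquot 3 (open triangle), ordered by ligand group and level and coloured by ligand group. The dashed line marks 1 FPKM, and the 20 detected genes lie to its right with their aliquots close together. F2rl3 was listed at 0 in aliquot 1, and that value is not drawn.

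Angiotensin receptors were represented by Agtr1a alone. Agtr1a (ENSMUSG00000049115, GRCm38 chromosome 13, 30336441 to 30382867, plus strand) encodes the type 1 receptor through which angiotensin II contracts vessels, and it had 483, 479.8 and 479 FPKM in aliquots 1, 2 and 3. Relative to their mean of 481 ± 2.50 FPKM, the aliquots lay closer together than those of any other detected member. Agtr1b, the second type 1 gene of rodents, Agtr2, which encodes the type 2 receptor, and Mas1, a receptor for angiotensin-(1-7), were listed at 0 in each aliquot, so no ratio of Agtr1a to Agtr1b is given.

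Because Agtr1a and Agtr1b are close copies, reads could in principle be exchanged between them. Their coding sequences in the GENCODE M21 transcripts have the same length of 1080 bases and differ at 99 positions, an identity of 90.8%. Of the 1031 windows of 50 bases in the coding sequence, 33 (3.20%) were identical in both genes. The longest identical run, coding bases 75 to 140 counted from the A of the start codon, is 66 bases long, and reads that lie inside it cannot be assigned. The window of 60 bases with the most differences, coding bases 964 to 1023, has 13, shown in capitals to let a reader see how often a read would meet one:
Agtr1a: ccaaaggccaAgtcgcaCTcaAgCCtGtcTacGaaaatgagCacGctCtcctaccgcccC
Agtr1b: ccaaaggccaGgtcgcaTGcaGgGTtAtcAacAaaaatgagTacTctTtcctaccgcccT
The identical run, shown for contrast, reads the same in both:
Agtr1a and Agtr1b: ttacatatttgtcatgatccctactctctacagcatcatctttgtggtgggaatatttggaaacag
Agtr1a lies on chromosome 13 and Agtr1b on chromosome 3. How reads that match both genes were treated is not given in the sources used here.

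Both endothelin receptors were detected, with the B receptor far above the A receptor. Ednra (chromosome 8, 77663031 to 77724464, minus strand), whose product mediates contraction by endothelin-1, had 13.5, 13.8 and 14.4 FPKM. Ednrb (chromosome 14, 103814625 to 103844402, minus strand), whose product in endothelium clears endothelin and releases nitric oxide, had 142, 137 and 137 FPKM. The log2 ratio of Ednra to Ednrb on the FPKM + 1 scale was -3.23 ± 0.07 (SD, n = 3), and every aliquot of Ednra was below every aliquot of Ednrb. With 3 aliquots no two-sided exact test of a paired value can reach 0.05, so ratios between genes are given without a p-value.

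Of the 10 peptide receptors 4 were detected, as were 2 of the 3 RAMPs, and Calcrl led all 59 genes. Calcrl (ENSMUSG00000059588, chromosome 2, 84330626 to 84425411, minus strand) encodes the shared receptor for calcitonin gene-related peptide and adrenomedullin, and it had 620.0, 583 and 563 FPKM, highest in aliquot 1, with a mean of 589 ± 28.8 FPKM. Ranked among all 21303 protein-coding rows it stood at 111, with Agtr1a at 144 and F2r at 279. Ramp2, the partner that makes Calcrl an adrenomedullin receptor, had 185, 205 and 201 FPKM and was lowest in aliquot 1, where Calcrl was highest. Ramp3, whose product also gives an adrenomedullin receptor, had 8.01, 7.25 and 7.31 FPKM. Ramp1, whose product makes the receptor for calcitonin gene-related peptide, was listed at 0. The log2 ratio was 4.54 ± 0.15 for Ramp2 over Ramp3 and 1.57 ± 0.14 for Calcrl over Ramp2 on the FPKM + 1 scale. The level of Ramp2 is uncertain: 33.4% of its exonic bases lie in exons of Vps25 on the same strand, and 30.7% of its 50-base windows occur in transcripts of that gene.

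The other peptide receptors were lower. Pth1r, the receptor for parathyroid hormone and its related peptide, had 17.7, 18.5 and 22.0 FPKM, highest in aliquot 3. Npy1r, a receptor for neuropeptide Y, had 10.9, 10.7 and 9.54 FPKM. Avpr1a, the V1a vasopressin receptor of contractile cells, had 5.53, 5.31 and 5.18 FPKM. Listed at 0 were Aplnr (apelin receptor), Oxtr (oxytocin receptor), Bdkrb1 and Bdkrb2 (bradykinin receptors), and Vipr1 and Vipr2 (receptors for vasoactive intestinal peptide).

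Of the protease-activated receptors, which thrombin and other proteases switch on by cutting them, F2r stood alone. F2r (chromosome 13, 95601803 to 95618487, minus strand), the main thrombin receptor of vascular cells, had 335, 320.3 and 312 FPKM, with the highest value in aliquot 1. F2rl3 (protease-activated receptor 4) had 0, 0.0548 and 0.104 FPKM, that is 0, 1 and 2 reads. F2rl1 (protease-activated receptor 2) and F2rl2 (protease-activated receptor 3) were listed at 0 in each aliquot.

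Receptors for lysophospholipids, lipid mediators carried in plasma and made by platelets, were detected for 4 of 10 genes. S1pr3 (chromosome 13, 51408639 to 51422797, plus strand), a sphingosine 1-phosphate receptor that couples to several G proteins, had 101, 105 and 102 FPKM. S1pr1, the sphingosine 1-phosphate receptor that endothelium uses to keep its barrier, had 16.6, 16.8 and 16.2 FPKM, and the log2 ratio of S1pr1 to S1pr3 on the FPKM + 1 scale was -2.56 ± 0.03. So the gene known as the endothelial one was the lower of the pair in every aliquot. S1pr2 rested on 1, 1 and 2 reads, with 0.0389, 0.0341 and 0.0647 FPKM, and S1pr4 and S1pr5, known from immune and glial cells, were listed at 0. Of the lysophosphatidic acid receptors, Lpar4 on the X chromosome had 22.4, 23.4 and 23.1 FPKM and Lpar6 had 9.93, 8.90 and 9.01 FPKM. Both belong to the branch related to P2Y receptors, whereas Lpar1, Lpar2 and Lpar3, of the branch related to sphingosine receptors, were all listed at 0.

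Prostanoid receptors were detected for 3 of 7 genes. Ptger4, the Gs-coupled EP4 receptor for prostaglandin E2, had 16.1, 16.3 and 15.4 FPKM. Ptgir, the prostacyclin receptor, had 4.17, 3.63 and 3.51 FPKM, and Ptger1, the EP1 receptor linked to calcium, had 2.85, 2.93 and 3.65 FPKM. The log2 ratio of Ptger1 to Ptger4 was -2.04 ± 0.19 on the FPKM + 1 scale. Tbxa2r, the thromboxane receptor, rested on 2, 3 and 2 reads with 0.124, 0.163 and 0.103 FPKM. The log2 ratio of Ptgir to Tbxa2r was 2.07 ± 0.11 on that scale, which understates it, since Tbxa2r lies below the added 1 FPKM. Ptger2 (EP2), Ptger3 (EP3) and Ptgfr (the prostaglandin F receptor) were listed at 0.

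Purinergic receptors summed to 2.45 ± 0.323 FPKM, 0.120% of the level of the 59 genes. P2ry1, a receptor for ADP, was the 1 detected gene of 8, with 2.34, 2.71 and 2.11 FPKM. Adora2a, the Gs-coupled adenosine receptor that widens vessels, rested on 2, 2 and 1 reads with 0.0863, 0.0757 and 0.0360 FPKM. Adora1, the Gi/o-coupled adenosine receptor, was listed at 0, as were Adora2b (a Gs-coupled adenosine receptor), P2ry2 (a receptor for ATP and UTP), P2ry6 (a receptor for UDP), P2ry12 (the platelet and microglial ADP receptor) and P2ry14 (a receptor for UDP-glucose).

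All 6 adrenergic receptors of the list were at 0 in each aliquot: Adra1a, Adra1b and Adra1d, which mediate contraction by noradrenaline, the inhibitory Adra2a and Adra2b, and Adrb1, known for renin release. Serotonin receptors were represented instead. Htr1b (chromosome 9, 81628291 to 81633828, minus strand), which encodes a Gi/o-coupled receptor, had 65.9, 71.4 and 63.7 FPKM, the highest level of the Gi/o class. Htr2b, a Gq-coupled receptor, had 5.80, 8.25 and 5.46 FPKM, with aliquot 2 above the others, while Htr2a, the serotonin receptor best known for vessel contraction, was listed at 0. The histamine receptor Hrh1 had 0.383, 0.448 and 0.390 FPKM, and Casr, the calcium-sensing receptor, was listed at 0.

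Grouped by the G protein that each receptor is best known to use, 7 of 21 Gq/11 genes, 4 of 10 Gs genes, 3 of 10 Gi/o genes and 4 of 12 genes with several partners were detected. Agtr2, Mas1 and F2rl2 were assigned to no class, and the RAMPs were left out. Summed over the receptors of a class, the level was 651 ± 4.47 FPKM for Gq/11, 628 ± 27.6 FPKM for Gs, 457 ± 10.8 FPKM for several partners and 94.0 ± 4.69 FPKM for Gi/o. One gene made most of each sum. Calcrl held 93.7% of the Gs sum, Agtr1a 73.8% of the Gq/11 sum, Htr1b 71.3% of the Gi/o sum and F2r 70.5% of the sum for several partners. The order of Gq/11 and Gs differed between aliquots. In aliquot 1 Gs had 658 FPKM and Gq/11 656 FPKM, while Gs was the lower in aliquots 2 and 3. The order of the first 3 classes also depends on gene length. With the longest annotated transcript as the length, the sums were 454 FPKM for Gq/11, 413 FPKM for Gs and 449.9 FPKM for several partners.

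**Figure D3:**
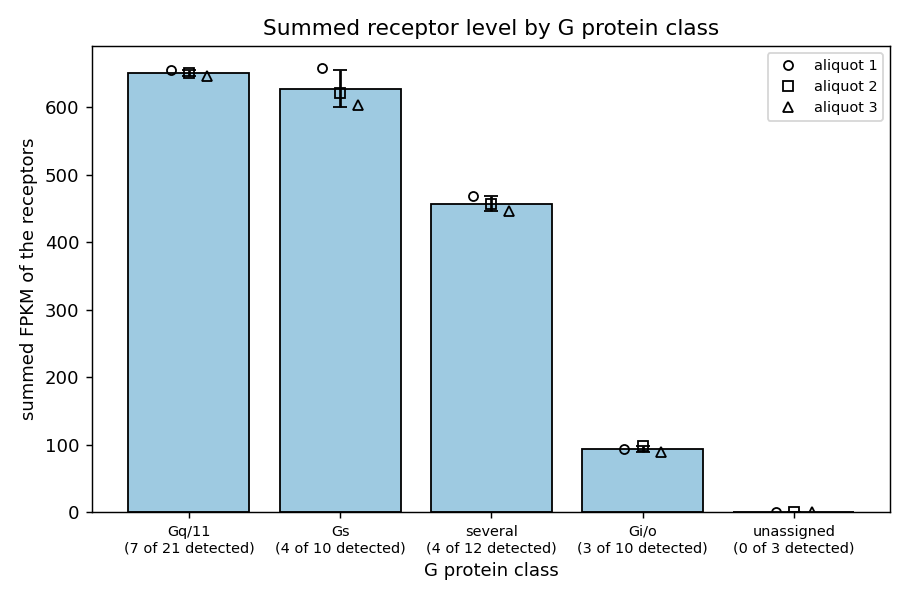
Summed FPKM (vertical axis) of the receptor genes in each G protein class, without RAMPs. Bars are means and error bars SDs over the 3 aliquots, whose own sums are the open symbols, and the label under each bar gives the detected genes. The Gi/o sum of 94.0 FPKM lies far below the 3 other nonzero sums.

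The signalling partners of these receptors were read from lists of related genes. Of 13 G alpha genes 10 were detected, among them the Gq/11 genes Gna11 (139 ± 2.24 FPKM) and Gnaq (126 ± 3.33 FPKM), Gna13 (116 ± 0.738 FPKM) of the G12/13 class and the Gi gene Gnai3 (63.1 ± 0.821 FPKM). Their order depends on gene length: with the longest annotated transcript Gna11 had 71.8 FPKM, Gna13 66.5 FPKM, Gnai3 63.1 FPKM and Gnaq 52.0 FPKM. Gnas, which encodes the Gs alpha subunit that Calcrl, Pth1r and Ptger4 use, had 2.25, 2.98 and 2.59 FPKM, and 22.0% of its exonic bases lie opposite exons of Nespas or Gm20721. Gnal, a further G alpha gene of the list, had 10.9, 11.2 and 9.92 FPKM. Both genes were named after their values were seen. Gna14 and Gna15 were listed at 0. Of 13 phospholipase C beta and adenylyl cyclase genes 3 were detected, Plcb1 (111 ± 2.78 FPKM), Plcb4 (22.7 ± 1.23 FPKM) and Adcy6 (6.04 ± 0.225 FPKM), and Adcy5 and Adcy9 were among 7 listed at 0. With the longest transcript Plcb1 had 42.9 FPKM, Plcb4 7.20 FPKM and Adcy6 6.02 FPKM. Of 7 receptor kinases and arrestins, which switch receptors off, 3 were detected, Arrb1 (13.6 ± 1.16 FPKM), Grk4 (7.24 ± 0.914 FPKM) and Grk2 (2.87 ± 0.162 FPKM), and Arrb2 and Grk5 were listed at 0. With the longest transcript these 3 had 4.66, 3.43 and 1.22 FPKM.

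Genes that make, move or break down the ligands were detected for 12 of 43 members. Ptges3, a chaperone partner also known as cytosolic prostaglandin E synthase, had 1827 ± 52.7 FPKM, the endothelin-converting enzyme gene Ece1 had 414 ± 7.27 FPKM, and Plpp3, which breaks down lysophospholipids, had 187 ± 7.22 FPKM. With the longest transcript Ptges3 had 1211 FPKM, and Ece1, with 129.6 FPKM, lay below Plpp3, whose level did not move. Adm, which encodes the peptide that Calcrl with Ramp2 receives, had 108, 114 and 113 FPKM. Ligand, receptor and partner were thus listed above 100 FPKM in the pool with either gene length, but the level of Ramp2 is uncertain through its overlap with Vps25. Agt, Ace and Ptgs2 (angiotensinogen, its converting enzyme and the inducible cyclooxygenase) were among 27 listed at 0. Of 31 further receptors for the same ligands, such as Adora3 and Ptgdr, 0 were detected and 30 were listed at 0, against 36.4% of protein-coding rows detected. The exception was Htr7, a serotonin receptor, with 0.0341 FPKM from 1 read in aliquot 3.

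The aliquots lay close together for most of the receptors. Over the 20 detected genes the coefficient of variation (CV) had a median of 5.09%, with 0.521% for Agtr1a at the low end and 23.4% for Htr2b at the high end. Reads recovered from the FPKM values were set against the library totals in a chi-square test, adjusted after Benjamini and Hochberg over the 9120 genes that had 30 reads or more. It called 2 of the 21 members it covered. Of all genes tested it called 1.09%, and 10.5% of the 506 genes with at least 10000 reads, which 5 members reach. Calcrl, with 17672, 18941 and 19278 reads, had an adjusted p of 1.4e-16, and F2r, with 10127, 11044 and 11318 reads, had 0.00024. Both were highest in aliquot 1. Among the 99 genes called over the whole table, 66 had an aliquot 1 level above their average over aliquots 2 and 3. Such a gene need not have its highest value in aliquot 1. The share of all tested genes with this direction was not computed, so the count does not tell whether aliquot 1 differed. Without aliquot 1 no member was called, and 2 of 8846 genes were called in all. An unadjusted p under 0.05 in the chi-square test was found for 5 of 20 members without aliquot 1. With all aliquots it was found for 6 of 21. How many of all genes had such a p was not counted. Without aliquot 3 Calcrl was called and F2r was not. Htr1b (adjusted p = 0.052), Pth1r (0.12), Ramp2 (0.25) and Htr2b (0.22) did not pass the chi-square test. These calls compare libraries of 1 cDNA pool and count amplified reads as independent molecules, so they cover counting error only.

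**Figure D4:**
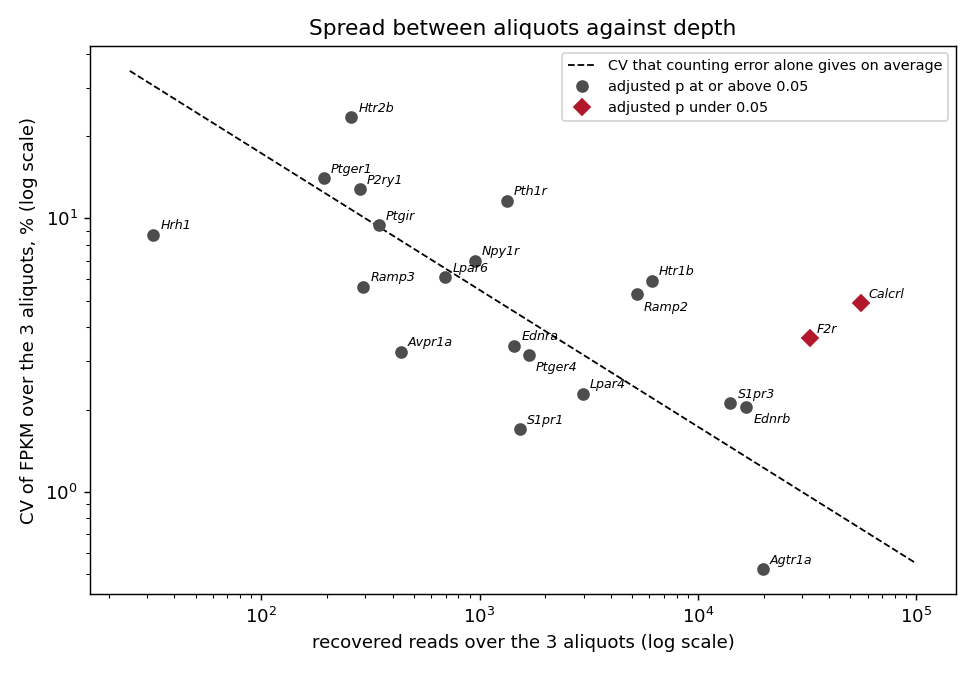
CV of FPKM over the 3 aliquots in percent (vertical axis, log scale) against recovered reads (horizontal axis, log scale) for the 21 receptor genes with at least 30 reads. The dashed line is the CV that counting error alone gives on average, and red diamonds are Calcrl and F2r, with adjusted p under 0.05 in the chi-square test. Agtr1a lies below the line at 0.521%, and Htr2b is highest at 23.4%.

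Levels of different genes depend on the gene length behind each FPKM, which can be read back from the values. Of the 20 detected genes, 13 had a longest annotated transcript under 1.1 times the implied length, and 7 had one over 1.5 times as long, namely Ptger1, Lpar6, Ramp2, Agtr1a, Htr2b, Htr1b and Calcrl. For Agtr1a the implied length was 1350 bases and the longest transcript has 2199. With the longest transcript as length, Agtr1a had 295 FPKM and fell behind F2r with 319.5 FPKM, and Calcrl kept the first rank with 376 FPKM. Ramp2 had 116 FPKM and fell behind Ednrb with 133 FPKM, while Lpar6 had 4.24 FPKM and Ptger1 had 1.34 FPKM. All 20 genes stayed detected. Overlap with a neighbour on the opposite strand is a second limit, since the strandedness of counting is not given in the sources used here. It covers 23.1% of the exonic bases of P2ry1, 18.0% of Htr1b, 16.5% of Ptger4 and 11.8% of Htr2b, and its part in their levels was not tested. Of the 34 members at 0, 28 have no exonic overlap with another gene, while 11 of the 20 detected genes have some. The share over all genes was not computed, and a part of overlap in the zeros was not tested.

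**Figure D5:**
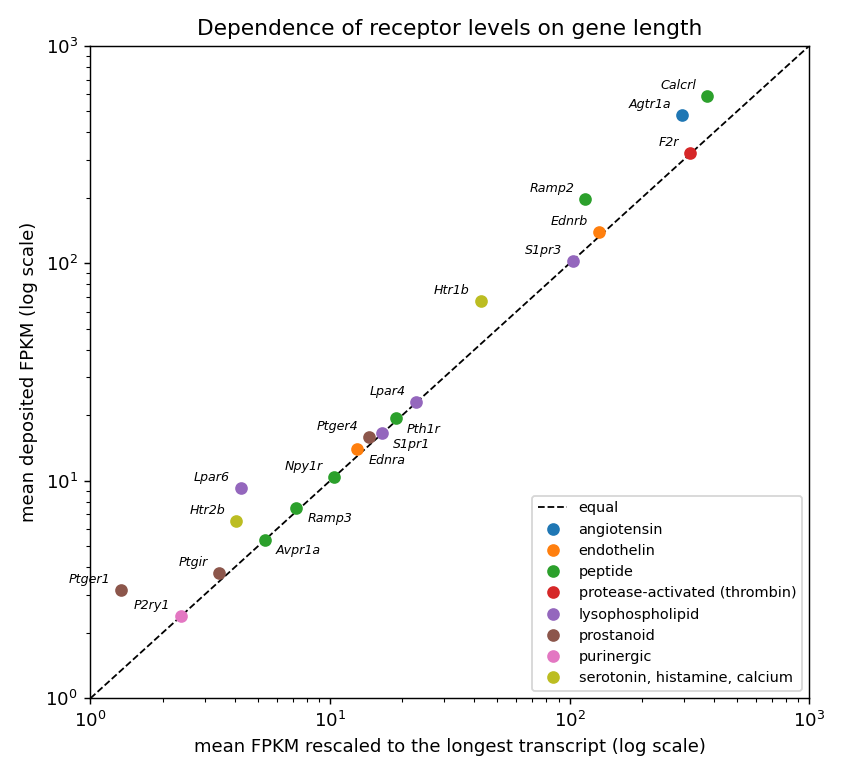
Mean deposited FPKM (vertical axis, log scale) against mean FPKM rescaled to the longest annotated transcript (horizontal axis, log scale) for the 20 detected receptor genes, coloured by ligand group. Points above the dashed line of equality have a higher deposited level, as Agtr1a does with 481 against 295 FPKM.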

How the data were processed

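RNA sequencing of 3 libraries was analysed from 1 table. Its values, deposited by the authors, are FPKM, and no scaling beyond that is recorded in the labels. The submitters' processing notes name TopHat2 2.0.12, HTSeq 0.6.1 and the build GRCm38. Settings, annotation release, gene length and read length are not given in these sources. Columns were matched to samples by title. Of 39179 Ensembl identifiers 37607 had a symbol, and all 59 members were found. Coordinates and transcript lengths are those of GENCODE M21 on GRCm38.

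Depth was read from the steps between low values. The library total was the commonest value of 1 read among genes under 0.5 FPKM, taking the mean GENCODE transcript length. A gene's reads were then the smallest whole numbers, to within 0.0001 reads, that 1 whole length gives in every library, or a multiple of them for 367 genes where this brought the length to the mean transcript. All 11142 genes above 0 could be solved. Reads of some genes may still be low by a whole factor. Recovered reads make up 96.7% of each total. Each gene's reads were tested against the library totals by chi-square with Benjamini-Hochberg adjustment at 0.05. Recovery, up to a common factor, and the test had each been tried on simulated data beforehand. There the test was run on the simulated counts, not on reads recovered from them. No count model was run, because there is 1 group. Shared sequence was counted as identical 50-base windows of transcripts. Some gene overlaps are not reported here.

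The members, gene lists, pairs and G protein classes were chosen with earlier results of these data known, and classes follow general knowledge. All members are named. Of each related list in the results, the 4 highest detected and up to 3 of those at 0 are named, with Gnas, Gnal and Htr7 besides. Alternatives were other detection limits, pseudocounts, gene lengths and read minimums, and leaving out each aliquot. Python 3.11.15, numpy 2.4.6, pandas 2.3.3 and scipy 1.17.1 were used.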

Additional observations from a re-analysis of the deposited data

How the results depend on the processing

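The count of 20 detected members stayed between 17 (5 FPKM in every aliquot) and 24 (above 0 in every aliquot) under every detection limit tried. It was 20 without any 1 aliquot and with the longest transcript as length. At 30 or more recovered reads, chosen after seeing the data, it was 21. The median log2 level of the members, 0, was -3.32 with a pseudocount of 0.1 FPKM, which is the value of a gene at 0, and 3.99 over members with at least 0.1 FPKM, which leaves out those at 0.

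Every ratio between receptors kept its sign. With a pseudocount of 0.1 FPKM the log2 ratio was -3.31 for Ednra over Ednrb, -2.62 for S1pr1 over S1pr3, -2.31 for Ptger1 over Ptger4, 4.07 for Ptgir over Tbxa2r and 4.69 for Ramp2 over Ramp3. Taking the longest transcript as length moved Ptger1 over Ptger4 to -2.74 and Ramp2 over Ramp3 to 3.83. From recovered reads, not per length, the ratios were -3.53 for Ednra over Ednrb, -3.20 for S1pr1 over S1pr3, -3.14 for Ptger1 over Ptger4, 5.65 for Ptgir over Tbxa2r, 4.15 for Ramp2 over Ramp3 and 3.42 for Calcrl over Ramp2. Ratios were not computed for the 5 pairs with a gene at 0. With the longest transcript as length, 10 of the 20 detected levels moved by more than 1 SD.

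The number of members beyond sampling noise between aliquots, 2, was 0 to 2 without any 1 aliquot, 3 with at least 100 reads (Htr1b was added) and 2 with at least 10 reads. No paired analysis was possible because there is 1 group. Depth limits what can be said of Tbxa2r, Adora2a, S1pr2 and F2rl3, which rest on 3 to 7 reads each.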

Other observations

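Genes with symbols used for other G protein-coupled receptors were read from a list chosen after the data were seen. It holds the 105 protein-coding genes with Adgr, Gpr or Gprc symbols. A symbol alone does not make the product such a receptor, and for genes such as Gpr89 this was not checked. Of the 105 genes 21 were detected (20.0%) and 80 were listed at 0, against 36.4% of protein-coding rows detected. The 4 with the highest levels are named. Adgrl4, an adhesion receptor of endothelium, had 179, 166 and 177 FPKM, Gprc5c had 70.5 ± 2.89 FPKM, Gpr89 had 39.8 ± 0.459 FPKM, and Adgrf5, another adhesion receptor of endothelium, had 37.0 ± 0.466 FPKM. The order depends on gene length: with the longest annotated transcript Adgrl4 had 62.1 FPKM, Adgrf5 37.0 FPKM, Gprc5c 28.5 FPKM and Gpr89 19.0 FPKM.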
